A study of Arabidopsis thaliana with 6 samples.

Results

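The genes described here are 2 pairs of neighbouring loci of Arabidopsis thaliana, AT1G67860 with AT1G67865 on chromosome 1 and AT4G30450 with AT4G30460 on chromosome 4. They were picked as the listed loci that each had a probe set assigned to 1 gene by the array annotation, and all 4 were found among 13350 genes with such a probe set. They had been chosen because earlier results of these arrays placed them among the probe sets with the largest differences toward miR172a. The differences of miR172a from vector and from miR164b are therefore given as a description, and no p-value is printed for them. Each locus had 1 probe set, and no locus lay between the members of a pair in the TAIR10.1 gene table. Whether a probe set also detects the neighbouring transcript was not tested, since sequences were not used here.

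Transcripts were measured in the vegetative apex, the shoot tip before flowering, of 7-day-old Columbia plants kept in short days, on 6 arrays in 3 groups of 2. Vector plants carried the empty plasmid pML_Bart, and the other groups overexpressed miR164b or miR172a in the Col-0 background. The labels give neither the promoter behind either microRNA nor the number of independent lines or plants behind an array, so p-values reflect only how these samples differ from one another, and that spread may be technical.

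MicroRNAs of plants pair with messenger RNAs of nearly matching sequence and lower their output by cleavage or by blocking translation. miR172 acts on AP2-type transcription factors that delay flowering, and miR164 on NAC transcription factors that set organ boundaries. Neighbouring plant genes can be copies of each other left by tandem duplication, or can share stretches of regulatory DNA, and either can go with similar expression. Glycine-rich proteins, the class to which AT4G30450 and AT4G30460 were assigned, include structural proteins of the cell wall. For AT1G67860 and AT1G67865 the gene table gives only that they are protein-coding, and no role is stated for them here.

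Median intensities of the 6 arrays lay between 85.3 and 92.2, and arrays of a group correlated at 0.991 to 0.994 across probe sets, against 0.981 to 0.987 between groups. Of 13 shoot meristem markers, 4 had a probe set listed for 1 gene. They were the stem cell peptide gene CLV3, the axillary meristem regulator LAS, the florigen partner FD and the auxin synthesis gene YUC4. None of these lay below 16 on all arrays, and their summed intensity was 312 to 317 in vector, 238 to 266 in miR164b and 288 to 330 in miR172a. LAS and FD were higher in miR172a than in miR164b (limma adjusted p = 0.034 and 0.024), the 2 of 4 that passed there (7.14% of all probe sets did in either direction). CLV3 went the other way, with 64.6 and 82.4 in miR164b and 50.9 and 44.9 in miR172a (limma adjusted p = 0.152). YUC4 read 87.3 and 95.2 in miR164b and 125 and 101 in miR172a (limma adjusted p = 0.279). Against vector the limma adjusted p of the 4 genes ran from 0.067 to 0.885 in miR172a and from 0.087 to 0.384 in miR164b. Their part in the results below was not tested. Of 6 flower, 7 root and 4 leaf marker genes sought, 0 had a probe set listed for 1 gene in the annotation, so these tissues were not assessed. Control probe sets differed between arrays: 25S rRNA was high in vector (4070, 4093), low in miR164b (443, 528), and unequally in miR172a, with 355 for replicate 1 against 3462 for replicate 2. The 3'-to-5' actin ratio ranged from 2.94 to 3.0 in vector and from 1.96 to 2.11 in miR164b, and was 2.25 for replicate 1 and 3.05 for replicate 2 of miR172a. The part of these controls in the results was not tested. The microRNAs themselves were not measured, so every direction rests on the labels. The miR172 target SNZ, an AP2-type floral repressor, read 126 and 107 in vector and 236 and 210 on the arrays labelled miR172a, which is opposite to a lowered target transcript. SMZ, another AP2-type target, read 163 and 158 in vector and 171 and 177 in miR172a (log2 0.11 ± 0.08, limma adjusted p = 0.506). No other miR172 target was read here, so nothing is said of miR172 targets as a class.

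AT1G67865 was near the bottom of the scale in 2 groups and bright in the third. Its scaled intensity was 7.9 and 12.6 for vector, 11.6 and 13.1 for miR164b, and 290 and 324 for miR172a. Both miR172a arrays stood above all others, and the vector and miR164b arrays overlapped. On the log2(intensity + 16) scale, the difference of miR172a from vector was 3.63 ± 0.12 (standard error from the fit to all 6 arrays, n = 2 per group), the highest of 22746 probe sets. The difference from miR164b was 3.51 ± 0.12, at rank 2.

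AT1G67860, its neighbour, had the same order of groups with respect to miR172a, with lower readings in that group. It read 23.9 and 12.0 for vector, 9.3 and 3.8 for miR164b, and 115 and 152 for miR172a. The miR172a arrays again lay above the other 4, and here the miR164b arrays also lay below the vector arrays. The log2 difference of miR172a was 2.15 ± 0.23 from vector and 2.73 ± 0.23 from miR164b, at rank 6 of all probe sets in both comparisons.

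The glycine-rich pair read 47.9 or more on every array. AT4G30450 read 117 and 127 for vector, 70.6 and 65.4 for miR164b, and 403 and 386 for miR172a. The 3 groups did not overlap, with miR164b lowest and miR172a highest. The log2 difference of miR172a was 1.57 ± 0.09 from vector, rank 31, and 2.29 ± 0.09 from miR164b, rank 9.

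AT4G30460 kept that order of groups with a smaller difference from vector. It read 152 and 138 for vector, 47.9 and 52.5 for miR164b, and 195 and 225 for miR172a, without overlap between groups. The log2 difference of miR172a was 0.48 ± 0.11 from vector, rank 1034, and 1.77 ± 0.11 from miR164b, rank 19. Of the 1.77 between the overexpressing groups, the larger part lay below the vector level, where miR164b minus vector was -1.28.

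**Figure D1:**
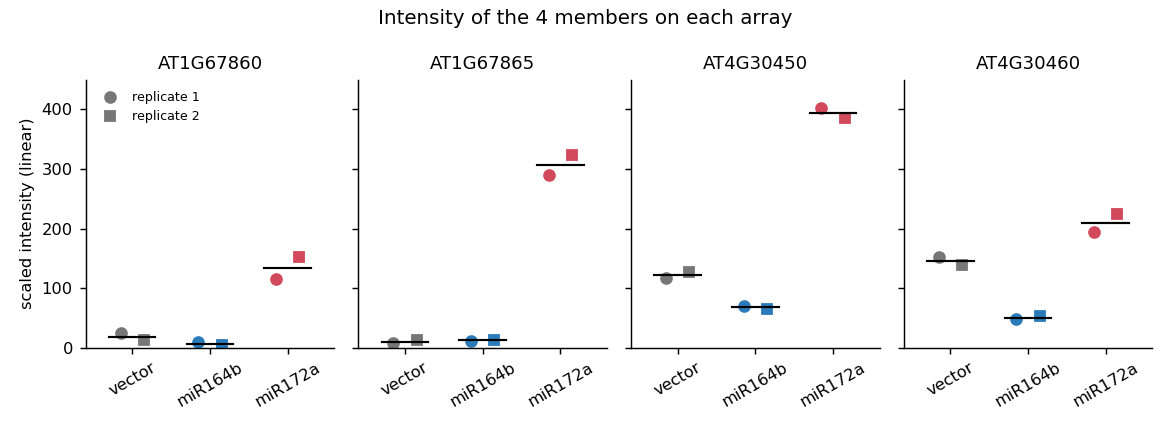
Scaled intensity (linear axis from 0) of the 4 genes on each of the 6 arrays, with circles for replicate 1, squares for replicate 2 and a black line at the mean of each group. The miR172a arrays were the highest for every gene, from 115 for AT1G67860 to 403 for AT4G30450, and the miR164b arrays lay below vector for AT4G30450 and AT4G30460.

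All 4 genes had both miR172a arrays above the 4 other arrays, an arrangement found for 16.4% of all probe sets. An adjusted p under 0.05 for higher levels in miR172a than in vector was reached by 3 of the 4, AT4G30460 being the exception, where 3.23% of all probe sets reached it. Against miR164b all 4 reached it, where 4.02% of all probe sets did. The members were chosen on these comparisons, so the counts follow from the choice and nothing is read from them. The comparisons share arrays, so their values are set side by side only.

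The differences were present on each miR172a array by itself. The 25S rRNA control differed between these arrays, and its part in the differences was not tested. With miR172a array 2 alone, the log2 differences from vector were 2.33 for AT1G67860, 3.70 for AT1G67865, 1.55 for AT4G30450 and 0.58 for AT4G30460. With miR172a array 1 alone they were 1.97, 3.55, 1.60 and 0.39. Cells of a type that became more frequent and more transcript per cell cannot be told apart in these bulk samples.

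In miR164b both glycine-rich genes were lower than in vector: AT4G30450 fell from 122 ± 7.21 to 68.0 ± 3.68 (SD, n = 2; log2 -0.72 ± 0.09, limma adjusted p = 0.027), and AT4G30460 from 145 ± 9.69 to 50.2 ± 3.25 (log2 -1.28 ± 0.11, limma adjusted p = 0.0094). AT1G67860 read 17.9 ± 8.41 and 6.55 ± 3.89 (log2 -0.58 ± 0.23, limma adjusted p = 0.256). AT1G67865 read 10.2 ± 3.32 and 12.3 ± 1.06 (log2 0.12 ± 0.12, limma adjusted p = 0.653). Thus 2 of 4 passed as lower, where 0.84% of all probe sets did. Both miR164b arrays lay below both vector arrays for 3 of the 4, as for 32.5% of all probe sets. Together with miR172a arrays above vector, an order found for 5.29% of all probe sets, this held for AT1G67860 and both glycine-rich genes. The miR164b arrays also entered the choice of the members, through the difference from miR172a. These p-values and counts are therefore not independent of that choice, and nothing is read from them. This holds most for AT4G30460, where miR172a minus miR164b had rank 19 and miR172a minus vector rank 1034. The AT4G30460 call was lost only without 1 of the 4 vector and miR164b arrays (adjusted p up to 0.122), and that of AT4G30450 under 9 of 14 other settings, including the removal of any array (adjusted p up to 0.222). The 25S rRNA and actin controls also separated the miR164b arrays from the vector arrays, and their part in these differences was not tested. Whether the response of one pair differed from that of the other was not tested.

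Within a pair, the members were compared array by array, as the difference between their log2(intensity + 16) values. A shift shared by all log2 values of an array cancels in this quantity, whereas a factor on the intensities does not cancel fully, because of the offset. This quantity says nothing of which gene is more abundant, because probe sets differ in brightness for equal amounts of RNA.

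For AT1G67865 minus AT1G67860 the difference was -0.74 and 0.03 for vector, 0.13 and 0.56 for miR164b, and 1.22 and 1.02 for miR172a. The groups did not overlap, but vector and miR164b were close, at 0.03 against 0.13. The share of all adjacent pairs without such overlap was not counted, so nothing is read from it for either pair. The difference of AT1G67865 was thus larger by 1.48 than that of AT1G67860 between vector and miR172a, and by 0.78 between miR164b and miR172a. The first of these values was 1.92 with an offset of 1 and 1.06 with 64, and it was 1.09 without vector replicate 1 and 1.86 without vector replicate 2. The second was 0.29 with an offset of 1. Both genes read below 24 on every array outside miR172a, and the size of the within-pair difference moved with the offset while its sign held.

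For AT4G30460 minus AT4G30450 the difference was 0.34 and 0.11 for vector, -0.44 and -0.25 for miR164b, and -0.99 and -0.74 for miR172a, again without overlap. AT4G30460 had the smaller difference over vector in miR172a and the larger one below vector in miR164b. AT4G30460 stood 1.09 lower relative to AT4G30450 in miR172a than in vector (change of -1.09), 0.52 lower in miR172a than in miR164b (-0.52), and 0.57 lower in miR164b than in vector (-0.57). For the last, and for the same quantity of the first pair (0.69), an exact two-sided permutation test gave p = 0.333, the smallest that 2 arrays against 2 allow.

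**Figure D2:**
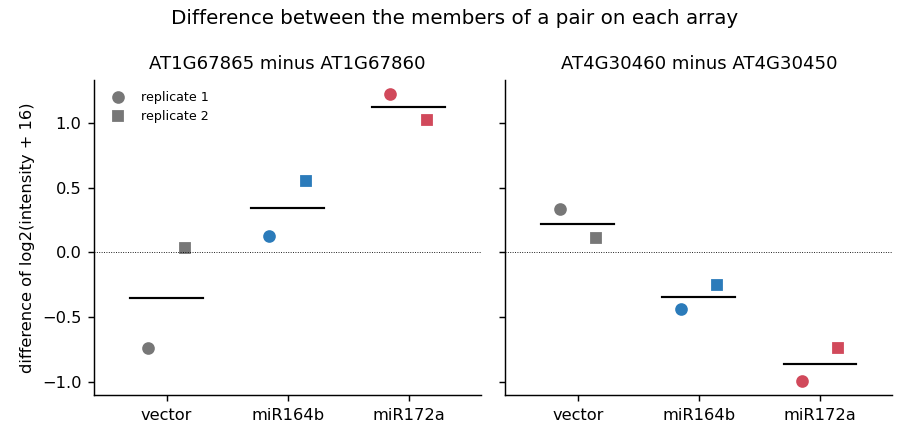
Difference between the log2(intensity + 16) values of the members of a pair on each array (circles replicate 1, squares replicate 2, black line the group mean). It was highest in miR172a for AT1G67865 minus AT1G67860, with a mean of 1.12, and lowest in miR172a for AT4G30460 minus AT4G30450, with a mean of -0.87.

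The measured loci on either side were read for the same pattern. Of the 20 loci within 5 steps of a pair, 10 had a probe set of their own, and these were tested in all 3 comparisons. The loci directly before each pair, AT1G67856 and GAE1 (AT4G30440), had no probe set listed for them alone and count as not measured. Whether they have one among the 8730 tested probe sets absent from the annotation is not known. Before the glycine-rich pair TET9 alone was measured, so how far the pattern extended on that side is not known. In miR172a against vector 1 of the 10 passed, where 5.87% of all probe sets did: AT1G67910, the fifth locus beyond AT1G67865, which read 112 and 109 in vector and 161 and 198 in miR172a (log2 0.63 ± 0.11, limma adjusted p = 0.038, lost under 9 of 14 other settings, including the removal of any array, with adjusted p up to 0.135). The 10 log2 differences ran from -0.28 to 0.63, below those of AT1G67860, AT1G67865 and AT4G30450. AT4G30460, at 0.48, lay inside this range.

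The measured locus nearest to the first pair is AT1G67870, next to AT1G67865. It read 358 and 410 for vector, 316 and 328 for miR164b, and 434 and 446 for miR172a. Its arrays had the same order of groups as those of AT1G67860, with log2 differences of 0.19 ± 0.10 from vector (limma adjusted p = 0.325) and 0.43 ± 0.10 from miR164b (limma adjusted p = 0.057). On the other side AT1G67855, at 2 steps, was at or below 16 on every array, with no array of miR172a above vector. AT1G67850, AT1G67880 and AT1G67890 had log2 differences of miR172a from vector between -0.22 and -0.10.

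Beside the glycine-rich pair, AT4G30470 adjoins AT4G30460. It read 364 and 349 for vector, 296 and 246 for miR164b, and 420 and 396 for miR172a, the order of groups that both glycine-rich genes had. It was higher in miR172a than in miR164b by a log2 of 0.57 ± 0.11 (limma adjusted p = 0.041), the 1 of 10 neighbours that passed there, where 7.14% of all probe sets did. It no longer passed under 9 of 14 other settings, including median centring and the removal of any array (adjusted p up to 0.186). AT4G30490, 3 steps away, was higher by 0.40 ± 0.10 (limma adjusted p = 0.080). The tetraspanin gene TET9, at 3 steps on the other side, read between 17.0 and 26.2 on all arrays, and its groups overlapped in all 3 comparisons.

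In miR164b against vector 0 of the 10 neighbours passed by limma, where 1.79% of all probe sets passed in either direction. An unadjusted p under 0.05 was reached by 6 of the 10 here and by 18.5% of all probe sets. It was reached by 2 of the 10 in miR172a against vector (21.3% of all) and by 6 in miR172a against miR164b (23.8% of all). AT1G67850 came nearest, with 262 and 258 in vector and 195 and 194 in miR164b (log2 -0.39 ± 0.08, limma adjusted p = 0.081). It passed with an offset of 64, without the dimmest probe sets and with a trended prior. Neighbours of the glycine-rich pair ran from a log2 of -0.38 to 0.18, against -0.72 and -1.28 in the pair itself.

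**Figure D3:**
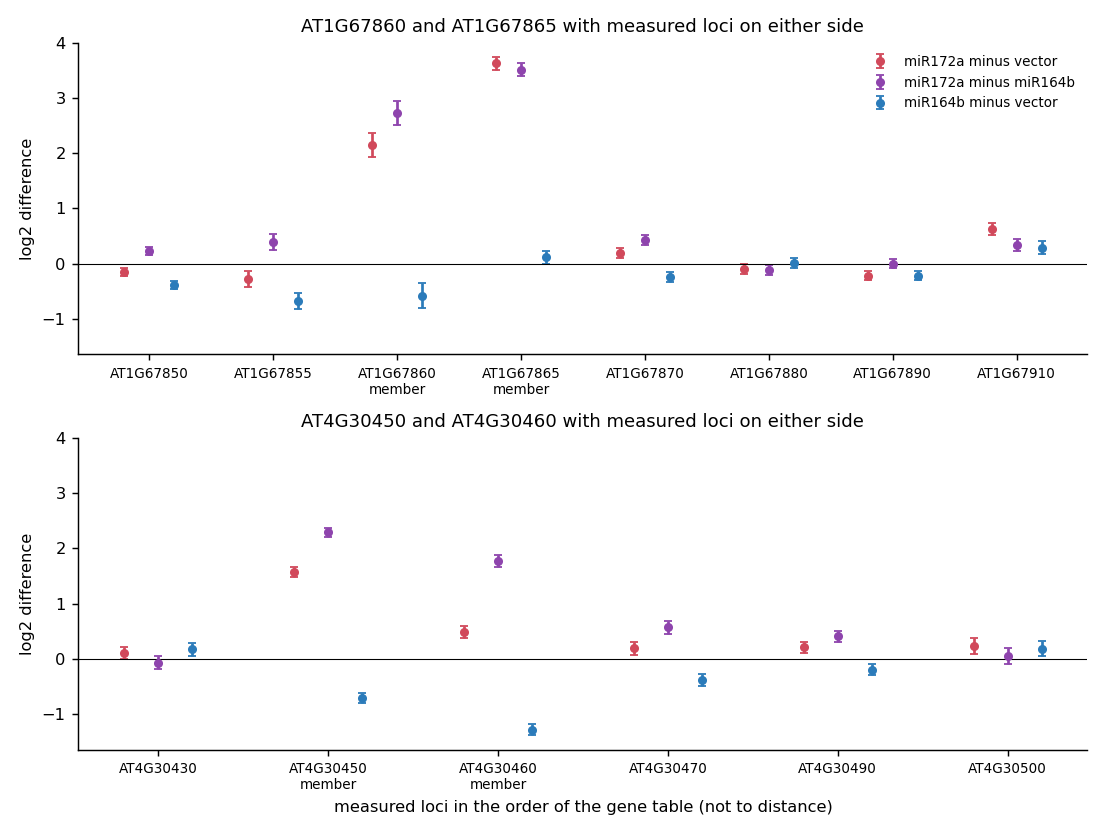
Log2 difference with its standard error for each measured locus within 5 steps of a pair, in gene-table order and not to distance, for the 3 comparisons by colour. AT1G67860, AT1G67865 and AT4G30450 stood between 1.57 and 3.63 for miR172a minus vector, while the other loci lay between -0.28 and 0.63.

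Pairs of neighbouring loci called together were counted over the whole gene table. Of single probe sets, 3.23% were called higher in miR172a than in vector and 4.02% higher than in miR164b. Whether joint calls were more or fewer than these shares imply was not tested. The gene table gave 5238 pairs of adjacent loci with a probe set each. Of these, 9 had both members called higher in miR172a than in vector (0.172% of pairs), and 15 had both called higher in miR172a than in miR164b (0.286%). AT1G67860 with AT1G67865 was in both counts, and AT4G30450 with AT4G30460 in the second. Without 1 array the first count was 0 or 1 and the second 1 to 9. AT1G67860 with AT1G67865 left the first count without either miR172a array and with an offset of 1, and the second without either miR164b array. AT4G30450 with AT4G30460 stayed in the second under all 14 alternatives. With a log2 difference of at least 1 in both members, 1 pair remained against vector, AT1G67860 with AT1G67865, and 2 pairs against miR164b, both of those described here. The members had been chosen for such differences.

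Both comparisons were passed by 5 pairs, named here after their values were seen. Beside AT1G67860 with AT1G67865 they were AT1G10640 with AT1G10650, AT2G24170 with the cytochrome P450 gene CYP71B6, the autophagy gene ATG8B with AT4G04630, and AT5G02540 with AT5G02550. Their log2 differences from vector lay between 0.48 and 0.89 in the 4 other pairs. In the opposite setting, with both members lower in miR164b than in vector, AT4G30450 with AT4G30460 was the 1 pair of 5238 (0.0191%), and 74 pairs had 1 member called lower. That count was 0 without any one of the 4 vector and miR164b arrays. The miR164b arrays also entered the choice of the members, so the place of AT4G30450 with AT4G30460 in it is not independent of that choice.

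Across all adjacent pairs the log2 differences of the 2 members were nearly unrelated. Pearson's r across the 5238 pairs was 0.100 for miR172a minus vector, 0.079 for miR172a minus miR164b and 0.036 for miR164b minus vector. For the 5067 pairs with 1 locus between them it was 0.046, 0.053 and 0.038. These are correlations across pairs measured on the same arrays, and pairs are not independent replicates.

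**Figure D4:**
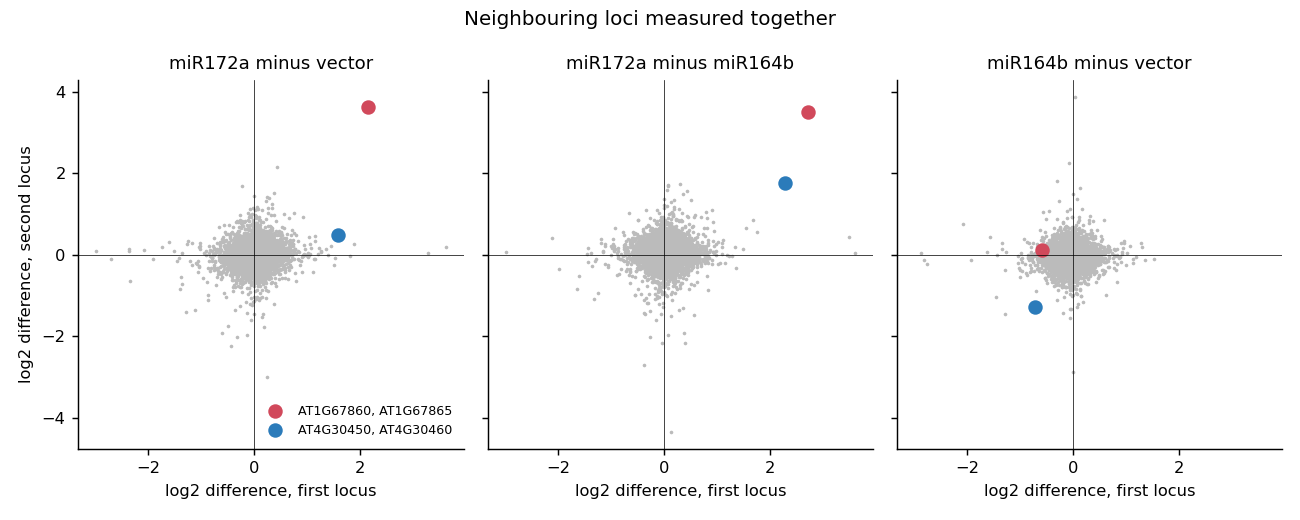
Log2 difference of the first against the second locus for 5238 pairs of adjacent loci (grey points) in the 3 comparisons, with AT1G67860 and AT1G67865 in red and AT4G30450 and AT4G30460 in blue. The red point stood at 2.15 and 3.63 for miR172a minus vector, and the blue point at -0.72 and -1.28 for miR164b minus vector.

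Profiles were also compared over the 6 arrays, as the root mean square difference between log2(intensity + 16) values centred on each gene's own mean. A smaller value means a more similar profile, in shape and size. AT1G67860 was nearer to AT4G30450 (0.33) than to its own neighbour AT1G67865 (0.66), and 0 of 13346 other genes were nearer to it than AT4G30450 was. Seen from AT1G67865, AT1G67860 was the next gene after WSD1, with 1 gene nearer. AT4G30450 was 0.46 from AT4G30460, with 23 other genes nearer to AT4G30450 and 75 nearer to AT4G30460.

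Among genes other than the 4 members, the one most like AT1G67865 was WSD1, a wax ester synthase, at 0.26 (Pearson r = 0.988 over 6 arrays). WSD1 read 22.8 and 16.2 for vector, 9.6 and 14.4 for miR164b, and 291 and 364 for miR172a. Among the same genes AT5G48570 and AT4G21650 followed at 0.83 each, and AT1G67860 was nearest to AT5G48570 (0.37), AT2G37900 (0.48) and WSD1 (0.52).

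With the members again left out, AT4G30450 was nearest to AT5G48570 at 0.17 (Pearson r = 0.985 over 6 arrays), then to AT2G37900 (0.29) and AT2G46140 (0.31). AT5G48570 read 59.7 and 64.5 for vector, 47.4 and 47.1 for miR164b, and 240 and 238 for miR172a. AT4G30460 had other genes beside it: the glucosyltransferase gene UGT84A1 (0.20), AT1G29270 (0.27) and AT1G04770 (0.33). UGT84A1 read 23.4 and 33.8 for vector, 7.8 and 4.5 for miR164b, and 54.0 and 56.9 for miR172a, so that it too was lowest in miR164b. AT1G29270 read 366 and 359 for vector, 140 and 125 for miR164b, and 309 and 364 for miR172a, with overlap between vector and miR172a. The genes nearest to AT4G30460 and those nearest to AT4G30450 had no member in common. These distances share the arrays that chose the members and are given as a description.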

How the data were processed

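The authors deposited 1 linear intensity per probe set and array for 22810 probe sets. How probes were summarised and scaled is not stated in the labels. The trimmed mean of every array (without the lowest and highest 2%) was 200, so the arrays had been scaled. The 64 AFFX controls were left out, and 22746 probe sets were tested. Of these, 13513 paired with 1 gene, 503 with several and 8730 were not listed in the annotation. Names and the order of loci came from the TAIR10.1 gene table, which matched 13508, and where a gene had several probe sets the brightest stood for it.

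Values were taken as log2(intensity + 16), without further scaling, and fitted with 1 mean per group over all 6 arrays in limma 3.58.1 (R 4.3.3), with 3 residual and 2.69 prior degrees of freedom. P-values were two-sided and adjusted by Benjamini-Hochberg over all probe sets, with a threshold of 0.05. The method was tested on simulated data. Figures were drawn with matplotlib 3.10.9 in Python 3.11.15. Dim probe sets have their changes shrunk by the offset, detection calls were not used here, and the number of arrays limits precision.

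The members and lists were chosen with earlier results of these data known. The genes named are the members, the measured loci within 5 steps of a pair and the 3 most similar profiles per member. Other genes are named as controls or after their values were seen. Sequences, the list of genes with glycine-rich proteins and the protein matches of the members were not analysed here.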

Additional observations from a re-analysis of the deposited data

Results flagged for a closer look

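For 6 of the 14 genes examined, both miR172a arrays lay above vector while both miR164b arrays lay below it, an order found for 5.29% of all probe sets. Of the 6, 3 were members chosen on these arrays, so the count partly follows from the choice and nothing is read from it. The log2 difference of miR172a minus miR164b was 2.73 for AT1G67860, 2.29 for AT4G30450 and 1.77 for AT4G30460, which were chosen on this difference, so no p-value is given for it. The neighbours AT1G67870, AT4G30470 and AT4G30490 had the same order, with differences of 0.43, 0.57 and 0.40 (limma adjusted p = 0.057, 0.041 and 0.080).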

How the results depend on the processing

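The direction of each member's difference from vector and from miR164b in miR172a held under all 14 alternatives. Several of these could not change it, because they leave the difference itself the same. They are the removal of dim probe sets, the 2 groups alone, the replicate block, the trended prior and the removal of an array of the group not compared. The members were also chosen on these differences. Offsets of 1 and 64 moved those from vector to 2.89 and 1.27 for AT1G67860, 4.81 and 2.32 for AT1G67865, and 1.69 and 1.30 for AT4G30450. Those from miR164b moved to 4.24 and 1.48, 4.53 and 2.28, 2.52 and 1.80, and, for AT4G30460, 2.04 and 1.26. Median centring gave 2.21 for AT4G30450 against miR164b. Leaving out 1 array gave 3.50 to 3.76 for AT1G67865 against vector. In miR164b against vector, AT4G30450 lost its call with an offset of 1 (-0.83), on the 4 arrays of both groups alone (-0.72), with the replicate block (-0.72, adjusted p = 0.065) and without any one array (-0.77 to -0.66). AT4G30460 lost its call without a vector or miR164b array (-1.34 to -1.22 over single arrays left out), and AT1G67865 changed sign (-0.013 to 0.25), without passing in any setting.

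The within-pair values and the count of pairs lower in miR164b were varied by settings chosen after seeing the data. AT1G67865 minus AT1G67860 was 1.92 and 1.06 with offsets of 1 and 64 in miR172a against vector (1.09 to 1.86 without 1 array), 0.29 with an offset of 1 against miR164b, and 1.63 and 0.25 in miR164b against vector (0.31 to 1.08 without 1 array). AT4G30460 minus AT4G30450 was -0.92 and -0.38 with an offset of 64, in miR172a and in miR164b against vector.

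Counts moved most. In the order miR172a against vector, miR172a against miR164b and miR164b against vector, the probe sets past the threshold were 1336, 1623 and 407. They were 406, 683 and 103 with an offset of 1, 2241, 2707 and 916 with 64, 2419, 2979 and 1148 without the 40% dimmest probe sets, 359, 1018 and 144 with the arrays of 2 groups, and 2263, 2724 and 1068 with a trended prior. Leaving out 1 array gave 111 to 359, 102 to 1018 and 9 to 144. The replicate block gave 795, 1104 and 186. The labels do not say whether same-numbered arrays were processed together. The deviations of same-numbered arrays correlated at -0.01, 0.10 and 0.08 between groups. Neighbouring pairs with both members higher numbered 0 and 4 with an offset of 1, 18 against vector with 64, 18 and 23 without dim probe sets, 1 and 9 with 2 groups, 3 and 8 with the replicate block, and 20 against vector with a trended prior. They numbered 9 against miR164b with median centring, and 0 to 1 and 1 to 9 without 1 array. Pairs with both members lower in miR164b numbered 0 with an offset of 1 and with the replicate block, 2 with a trended prior, and 0 to 1 without 1 array. With the 2 groups alone, and without either miR172a array, the 1 such pair was another.

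Of the 10 neighbours, 0 passed against vector in miR172a with an offset of 1, with 2 groups, with the replicate block and without any 1 array. Against miR164b 0 did with an offset of 1, median centring, 2 groups or without any 1 array, and 3 did with 64, without dim probe sets or with a trended prior. In miR164b against vector 1 did in those last 3 settings and 0 without any 1 array. Signs turned for neighbours that passed in no setting: AT1G67890 (-0.073 with median centring and -0.074 with quantile normalization, -0.057 to 0.059 without 1 array), AT4G30500 (-0.022 and -0.012, -0.10 to 0.21) and TET9, AT4G30430 (-0.18 to 0.038), against miR164b, and AT1G67880 in miR164b against vector (-0.052 to 0.079). The cause of these changes was not tested.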
